A study of Drosophila melanogaster with 2 samples.

Results

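Binding of Jra was described here at 10 Drosophila genes of the autophagy pathway. They were Atg1, Atg2, Atg5, Atg7, Atg8a, Atg9, Atg13, Atg17, Atg18a and ref(2)P, of 13945 protein-coding genes on the arms 2L, 2R, 3L, 3R, 4 and X. The genes were chosen by name, and a region was assigned to a gene when its summit lay in the gene body or within 3 kb of either end, in Ensembl release 115 gene models on build dm6. Jra, the fly Jun protein, was precipitated with an antibody against GFP from whole larvae of both sexes, at the wandering stage of the third instar, of a line that carries Jra fused to GFP at its C terminus. The 2 biological replicates, which the labels number 1 and 3, form the only group, with no untagged or untreated group among the samples. Values are averages over whole animals, so weak binding in many cells and strong binding in few cannot be told apart.

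Autophagy encloses cytoplasm in a double membrane, the autophagosome, and delivers it to the lysosome for breakdown. The Atg1 kinase complex starts the process, lipid transfer and membrane proteins enlarge the membrane, and a conjugation system related to ubiquitin attaches Atg8a to it. ref(2)P, the fly counterpart of mammalian p62, binds ubiquitinated cargo and Atg8a. In fly larvae the fat body is known for a wave of autophagy that the steroid hormone ecdysone sets off around wandering. Jra pairs with the Fos protein kay as AP-1, and JNK signalling acts through this factor.

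Of the 10 genes, 9 held a summit of the authors' list of reproducible peaks (IDR list, for irreproducible discovery rate) in their window. Atg2 was the exception. Over all protein-coding genes the share was 34.3%. The stricter count was of summits within 1000 bp of a transcription start site (TSS) of the gene itself, and it took in 5 of the 10: Atg7, Atg8a, Atg9, Atg17 and Atg18a. The share of all protein-coding genes was 20.4%. Atg1, Atg5, Atg13 and ref(2)P held IDR summits farther away, in an intron, upstream or beyond the end of the gene. A total of 7 of the 10 genes held 2 or more IDR summits, against 13.9% of protein-coding genes. The 18 IDR peaks in these windows formed 15 separate stretches. Of the 18, 6 overlapped another IDR peak, beside 14.2% of all nuclear IDR peaks, and the peaks of Atg1 overlapped each other.

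The 10 genes were longer than most, with a median of 4420.5 bp against 2166 bp, and the share of genes with a summit rose with length. Among protein-coding genes of 2167 to 4998 bp, 36.3% held an IDR summit in the window and 23.4% held one within 1000 bp of a TSS. Of the 6 autophagy genes of that length, 6 and 4 did. Among genes of 4999 bp or more the shares were 48.5% and 30.4%, and 3 and 1 of the 4 autophagy genes did. No test was made of these counts, because the genes were chosen with results of these data known.

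**Figure D1:**
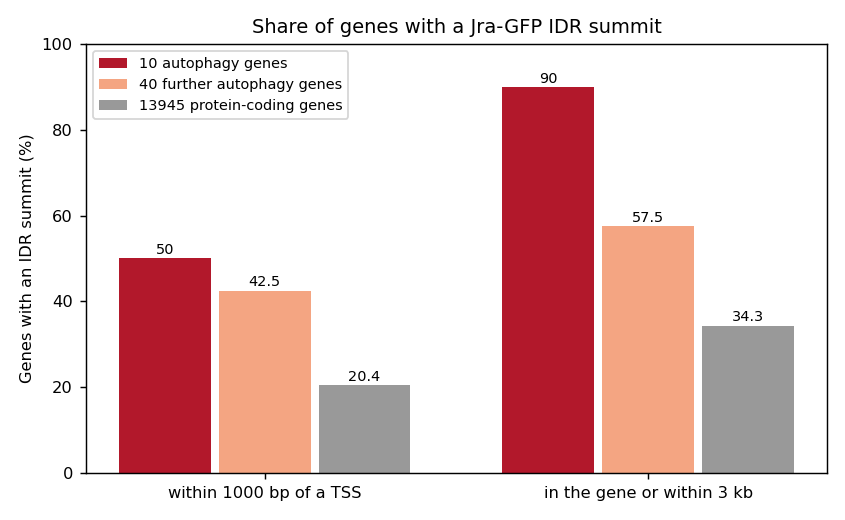
Percent of genes (vertical axis) with an IDR summit within 1000 bp of a TSS of the gene (left) and in the gene or within 3 kb of it (right), for the 10 autophagy genes, 40 further autophagy genes and all 13945 protein-coding genes. The bars of the 10 genes stand for 5 and 9 genes, beside 20.4% and 34.3% of all protein-coding genes. Both sets of autophagy genes were chosen with earlier results of these data known, and the bars are not matched for gene length.

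The 18 IDR peaks in these windows were of ordinary strength. Their signal, a value the authors' peak caller gave to each region of the pooled list, ran from 71.6 to 354 with a median of 104. The median over all 3803 nuclear IDR peaks was also 104. The strongest peak per gene had a median signal of 127 in the 9 genes and of 124 in all protein-coding genes with a peak. The lowest IDR peak was that upstream of Atg17 at 71.6, and the strongest region that missed the IDR list was one of 66.4 near the first TSS of Atg8a.

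Many of the 18 summits lay at a neighbouring gene. For 5 summits the nearest TSS of a protein-coding gene was that of the autophagy gene itself, and for 13 it was that of another. Over all protein-coding genes, the gene's own TSS was nearest in 43.8% of 7980 pairs of a gene and a summit in its window. Atg5, Atg8a, Atg17 and Atg18a, 4 of the 10, were the nearest gene for at least 1 IDR summit, which held for 18.8% of protein-coding genes. All 18 summits fell in the windows of 2 or more protein-coding genes, as did 65.0% of the 3564 IDR summits that fell in any such window. That share counts each summit once. Summits reached through the windows of chosen genes are more often shared ones, so the share is too low a background for the 18. For 7 of the 10 genes the closest TSS of another gene lay within 500 bp, a count not made for all protein-coding genes. Distance therefore does not say which gene a peak belongs to, and each peak is given below with its nearest gene.

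**Figure D2:**
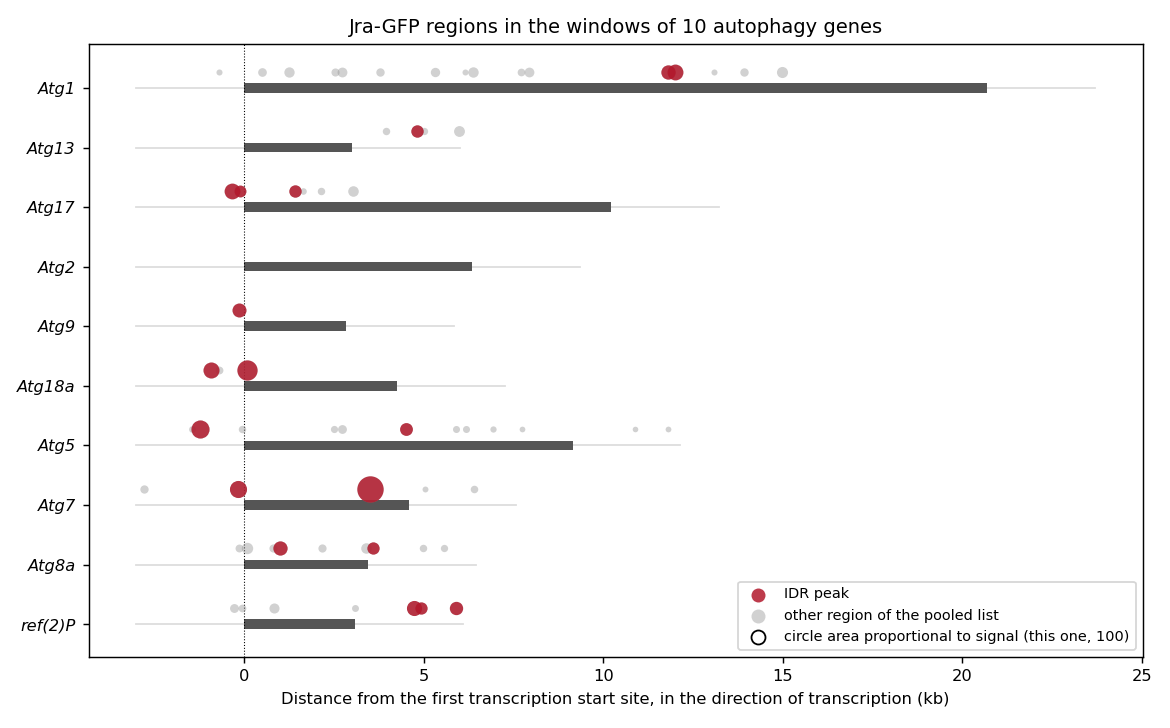
Position of region summits along each gene, as distance in kb from its first TSS in the direction of transcription, with gene bodies as dark bars and the 3 kb windows as thin lines. Red circles are the 18 IDR peaks, grey circles other regions of the pooled list, and circle area is proportional to signal. Atg2 has no circle, and the largest one, of signal 354, lies in an intron of Atg7.

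Both replicates held a region at each of the 18 peaks. The IDR list was made from the lists of both replicates, so this is no separate sign of agreement. The list of each replicate runs to about 30000 regions and includes background, so a rank within it says more than presence. Each peak was paired with the overlapping region whose summit was nearest to its own. In replicate 1 the ranks of these regions by signal ran from 82 to 8043 with a median of 2052.5. In replicate 3 they ran from 153 to 8051 with a median of 2287. For 13 of the 18 peaks this region was among the 3827 strongest of each replicate, as many as there are IDR peaks, and for 63.4% of all nuclear IDR peaks. It was so in replicate 1 alone for the peak in the intron of Atg5, that between Atg8a and Tango5 and the weaker one upstream of Atg17. It was so in replicate 3 alone for the peak in the intron of Atg17 and the weaker one near CG10337. When any overlapping region was counted, including that of a neighbouring peak, 15 of the 18 and 69.1% of all nuclear IDR peaks reached this rank in both. The better rank was in replicate 1 for 9 peaks and in replicate 3 for 9.

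**Figure D3:**
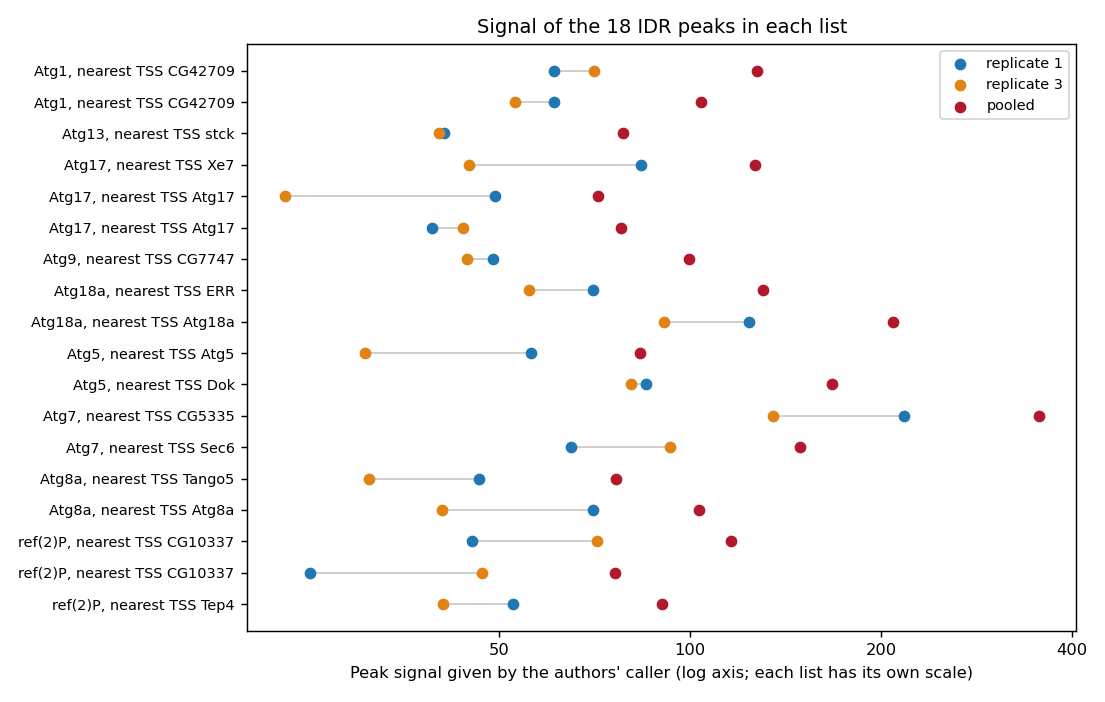
Signal of the 18 IDR peaks on a log axis in the pooled list and in the lists of replicates 1 and 3, with rows named by the autophagy gene and the nearest gene. Each list has its own scale, replicate values are those of the overlapping region with the nearest summit, and the 2 peaks of Atg1 share that region in replicate 1. The peak of Atg7 nearest to CG5335 is the strongest of the 18 in each list, at 354, 217 and 135.

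The initiation genes differed in where binding lay. Atg1 (FBgn0260945, chr3L:12784429-12805116, minus strand) encodes the kinase that starts autophagosome formation. Its window held 16 regions of the pooled list, of which 2 were IDR peaks. These overlapping peaks had signals of 128 and 104, with summits 12006 and 11804 bp downstream of the TSS in an intron of Atg1. The same bases are intronic in CG42709, whose TSS was nearer, at 1892 and 2094 bp. Replicate 1 had 1 region over both, of signal 61.0 (rank 1906), with its summit between theirs. Replicate 3 had a region at each, of signal 70.6 (rank 919) and 52.9 (rank 1700). At the TSS of Atg1 the strongest pooled region had a signal of 38.7 and ranked 9305. Its counterparts had 19.9 in replicate 1 (rank 11259) and 20.8 in replicate 3 (rank 9405), well below the ranks of the intronic regions.

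The 101 bp around the stronger Atg1 summit, chr3L:12793060-12793160, plus strand, are shown as the main site in this gene. None of the 5 motifs searched was in them, so there are no capitals.
Atg1 intron: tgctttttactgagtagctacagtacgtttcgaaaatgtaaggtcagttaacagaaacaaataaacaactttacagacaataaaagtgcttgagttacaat

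The 5 motifs were searched on both strands around all summits and are marked in capitals in the sequences that hold them. The AP-1 site, TGACTCA or the same site read on the opposite strand, TGAGTCA, binds dimers of Jun and Fos. The related cyclic AMP response element (CRE) was searched as TGACGTCA. The DNA replication-related element (DRE) was searched as TATCGATA. The E box was searched as CACGTG, and the site of the GAGA factor as GAGAGAG. None of these motifs contains another.

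Atg17 (FBgn0037363, chr3R:5669713-5679930, plus strand) encodes the scaffold of the kinase complex, the counterpart of mammalian FIP200. It stands head to head with Xe7, with 379 bp between the start sites. Of its 3 IDR peaks, 2 had their summits in that gap, and these 2 overlapped each other. The stronger, of signal 127, had its summit 38 bp from the TSS of Xe7 and 341 bp upstream of Atg17. The weaker, of 71.6, lay 117 bp upstream of Atg17. In replicate 1 the 2 regions had signals of 83.8 and 49.3, and in replicate 3 they had 44.9 and 23.0. The region nearer to Xe7 was the stronger in the pooled list and in both replicates, and the one nearer to Atg17 ranked 8051 in replicate 3.

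The third peak of Atg17, of signal 77.9, lay in an intron 1427 bp downstream of the TSS. It had a signal of 39.2 in replicate 1 (rank 4114) and 43.9 in replicate 3 (rank 2500). It is shown because an AP-1 site lay 68 bp from its summit, inside the region. The sequences at the start sites are shown for the DRE between Atg17 and its weaker upstream summit. All are on the plus strand, without any UTR bases.
Xe7 side, chr3R:5669335-5669422: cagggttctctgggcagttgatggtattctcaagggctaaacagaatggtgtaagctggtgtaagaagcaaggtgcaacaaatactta
Atg17 side, chr3R:5669471-5669712: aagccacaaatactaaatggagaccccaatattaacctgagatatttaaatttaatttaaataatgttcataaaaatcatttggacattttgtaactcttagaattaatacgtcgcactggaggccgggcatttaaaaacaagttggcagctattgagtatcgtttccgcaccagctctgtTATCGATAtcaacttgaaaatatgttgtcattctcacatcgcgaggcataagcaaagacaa
Atg17 intron, chr3R:5671015-5671265: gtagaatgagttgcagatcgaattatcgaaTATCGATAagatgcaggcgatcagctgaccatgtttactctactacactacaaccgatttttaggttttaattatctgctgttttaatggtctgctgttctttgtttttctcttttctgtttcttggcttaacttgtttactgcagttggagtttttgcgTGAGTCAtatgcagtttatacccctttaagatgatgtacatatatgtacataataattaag
In the first there is no motif, in the second the capitals are a DRE, and in the third they are a DRE followed by an AP-1 site.

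Atg13 (FBgn0261108, chr3R:8349815-8352817, plus strand), the partner that activates Atg1, had 1 IDR peak of signal 78.3. Its summit lay 1800 bp beyond the end of the gene, and the nearest TSS, at 2361 bp, was that of stck, which encodes the integrin-linked adaptor PINCH. Replicate 1 had 41.0 there and replicate 3 had 40.2. At the TSS of Atg13 no region was listed in the pooled list or in replicate 1, and replicate 3 listed 2, of signal 23.7 and 10.1, at 13 and 224 bp from the TSS. The peak called from both replicates was thus beyond the gene, and the signal at its promoter was seen in 1 replicate.

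**Figure D4:**
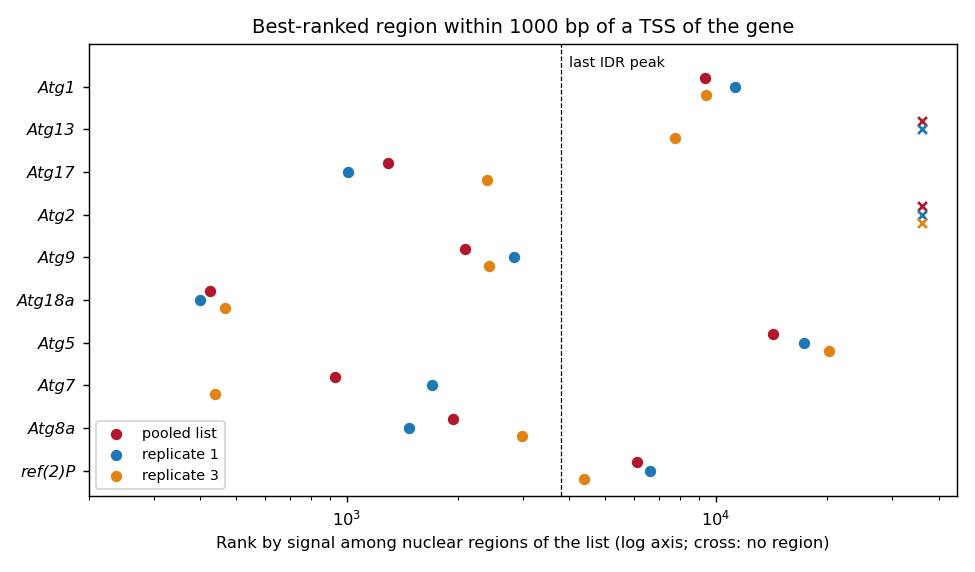
Rank by signal (log axis, best ranks to the left) of the best region within 1000 bp of a TSS of each gene, in the pooled list and the lists of replicates 1 and 3, with a cross where a list has none. The dashed line marks the rank of the last nuclear IDR peak, 3803. Atg7, Atg8a, Atg9, Atg17 and Atg18a lie to its left in all 3 lists, and no other gene does in any of them.

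The membrane genes ranged from no region at all to one of the stronger promoter peaks. Atg18a (FBgn0035850, chr3L:8186857-8191118, plus strand) encodes a protein that binds phosphatidylinositol 3-phosphate and recruits Atg2. It has 2 start sites, and its stronger IDR peak, of signal 209 (rank 426 of 3803), lay in the 5′ UTR, 66 bp from the second. It had a signal of 124 in replicate 1 (rank 400) and 91.1 in replicate 3 (rank 469). The replicate summits were nearer to the first start site, 59 and 31 bp downstream of it, so the peak cannot be placed at either start site. The other peak, of signal 130, lay 917 bp upstream, in an intron of ERR and 270 bp from a TSS of that gene. ERR encodes the fly estrogen-related receptor, a nuclear receptor that controls carbohydrate metabolism. Replicate 1 had 70.4 and replicate 3 had 55.7 at this second peak.

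Atg2 (FBgn0044452, chr3L:2774338-2780677, plus strand) encodes the protein that moves lipid into the growing membrane. It had no region in its window in the IDR list, the pooled list or either replicate, and 20.8% of protein-coding genes shared that. The nearest region of any list lay 5256 bp away, in replicate 3, and the nearest IDR summit, of signal 128, lay 7485 bp away. A neighbour, CG12093, has its TSS 331 bp from that of Atg2, and no region was listed between them.

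Atg9 (FBgn0034110, chr2R:16294400-16297232, plus strand) encodes the membrane-spanning protein that supplies lipid from vesicles. Its window held 1 region of the pooled list, an IDR peak of signal 99.6 and rank 2084. The summit lay 154 bp upstream of the TSS and 116 bp from that of CG7747, the neighbouring gene. Replicate 1 had 49.0 there with its summit 34 bp upstream of Atg9, and replicate 3 had 44.6 with its summit at 157 bp. The nearer TSS was thus that of Atg9 in replicate 1 and that of CG7747 in replicate 3. Summits lie in the middle of nearly all replicate regions, so this does not place the binding at either TSS.

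The conjugation genes held the strongest and some of the weakest values. Atg7 (FBgn0034366, chr2R:18620466-18625044, minus strand) encodes the enzyme that activates Atg8a and Atg12 for conjugation. The strongest of the 18 peaks, of signal 354 and rank 96, lay in an intron of Atg7, 3510 bp downstream of its TSS. It was 7 bp from the TSS of CG5335. It had 217 in replicate 1 (rank 82) and 135 in replicate 3 (rank 153). The peak at the start of Atg7 had a signal of 149, with its summit 166 bp upstream and 39 bp from the TSS of Sec6, which encodes an exocyst subunit. It had 64.9 in replicate 1 (rank 1700) and 93.1 in replicate 3 (rank 439). For Atg7 both summits were thus closer to the start of another gene. The region of signal 149 covered the start sites of both Atg7 and Sec6, so it cannot be placed at either.

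Atg5 (FBgn0029943, chrX:7314622-7323770, minus strand) is joined to Atg12 in the conjugate that directs Atg8a to the membrane. Its stronger peak, of signal 167, lay 1240 bp upstream, in introns of Dok and CG1677 and 796 bp from the TSS of Dok, an adaptor of tyrosine kinase signalling. Replicate 1 had 85.4 there and replicate 3 had 80.8. The other peak, of signal 83.5, lay 4516 bp downstream of the TSS, in introns of Atg5 and CG1677. It had 56.1 in replicate 1 (rank 2199) and 30.8 in replicate 3 (rank 4984). At the TSS of Atg5 a region with its summit 47 bp upstream had 28.2 in the pooled list, 14.9 in replicate 1 and 12.2 in replicate 3, far below the IDR range.

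Atg8a (FBgn0052672, chrX:10764878-10768338, minus strand) encodes the ubiquitin-like protein that coats the autophagosome. It has 3 start sites and an IDR peak of signal 103 at the middle one, 33 bp upstream of it. Replicate 1 had 70.4 with its summit 112 bp upstream of that TSS, and replicate 3 had 40.7 with its summit 1 bp upstream. At the first TSS, shared within 199 bp with BTBD9, the region of signal 66.4 ranked 4195, just outside the IDR list. It had 27.4 in replicate 1, where it ranked 7069, and 35.7 in replicate 3, where it ranked 3833.

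The second IDR peak of Atg8a, of signal 76.5, lay 120 bp beyond the end of the gene. The nearest TSS, at 345 bp, was that of Tango5, the fly counterpart of mammalian VMP1, a protein of the endoplasmic reticulum needed for autophagosome formation. Replicate 1 had 46.5 there, with its summit at 41 bp. In replicate 3 the overlapping region with the nearest summit, of 31.3, had it 209 bp away. The same peak is therefore in the window of Atg8a and at the promoter of another autophagy gene. Both summits are shown on the plus strand without UTR bases, and neither sequence held a motif.
Atg8a start site, chrX:10767307-10767464: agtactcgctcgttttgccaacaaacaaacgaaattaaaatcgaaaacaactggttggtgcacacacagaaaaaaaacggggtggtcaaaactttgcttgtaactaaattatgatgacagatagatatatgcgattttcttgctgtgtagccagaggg
Between Atg8a and Tango5, chrX:10764708-10764808: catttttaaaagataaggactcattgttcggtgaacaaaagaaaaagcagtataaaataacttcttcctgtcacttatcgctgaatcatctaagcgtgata

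ref(2)P (FBgn0003231, chr2L:19542468-19545548, plus strand), the cargo receptor, had 3 IDR peaks, all beyond its end. The overlapping first pair, of signal 116 and 76.1, lay 1639 and 1856 bp beyond it, with the TSS of CG10337 at 228 and 445 bp. At the stronger, replicate 1 had 45.3 (rank 3278) and replicate 3 had 71.4 (rank 892). At the weaker, replicate 1 had 25.2 (rank 8043) and replicate 3 had 47.0 (rank 2177). The third, of signal 90.3, lay 2830 bp beyond the gene and 129 bp from the TSS of Tep4, which encodes a thioester-containing protein of the immune system. Replicate 1 had 52.6 and replicate 3 had 40.7 there. This summit was the closest to the edge of the window on the inside, and the closest outside, of signal 73.5, lay 3997 bp from ref(2)P.

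At its own TSS ref(2)P had 3 regions of the pooled list below the IDR range, with signals of 52.0 at 837 bp downstream and 40.6 and 30.3 at 282 and 74 bp upstream. In replicate 1 the strongest region there had 28.6, upstream, and in replicate 3 it had 33.2, downstream. The replicates differed in which region was the stronger. The promoter is shown because it held 3 DREs in 250 bp, and the regions beyond the gene because they held the AP-1 sites nearest to a summit besides that of Atg17.
ref(2)P promoter, chr2L:19542218-19542467: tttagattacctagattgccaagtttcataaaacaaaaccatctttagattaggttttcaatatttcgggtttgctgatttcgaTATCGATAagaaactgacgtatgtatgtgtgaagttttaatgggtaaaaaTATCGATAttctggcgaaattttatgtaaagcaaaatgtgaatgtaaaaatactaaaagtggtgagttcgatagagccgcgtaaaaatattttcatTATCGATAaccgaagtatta
Near CG10337, chr2L:19547062-19547312: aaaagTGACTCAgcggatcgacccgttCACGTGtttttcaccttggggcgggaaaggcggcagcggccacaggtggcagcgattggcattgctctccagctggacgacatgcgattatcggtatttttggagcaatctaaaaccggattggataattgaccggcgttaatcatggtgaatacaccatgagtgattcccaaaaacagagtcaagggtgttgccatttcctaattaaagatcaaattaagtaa
Near Tep4, chr2L:19548253-19548503: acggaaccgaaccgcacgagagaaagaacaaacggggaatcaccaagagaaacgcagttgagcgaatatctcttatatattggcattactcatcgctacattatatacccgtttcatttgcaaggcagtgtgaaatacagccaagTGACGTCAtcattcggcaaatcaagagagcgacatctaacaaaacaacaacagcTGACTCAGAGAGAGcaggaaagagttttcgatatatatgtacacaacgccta
The capitals are the 3 DREs in the first, an AP-1 site and an E box in the second, and a CRE, an AP-1 site and a GAGA motif, the last of these directly after the AP-1 site, in the third.

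The 18 summits had no AP-1 site within 50 bp, which allows a share of up to 16.7% (3 counts). Of all nuclear IDR summits 4.08% had one (155 of 3803), so a count of 0 of 18 is near the background. In the whole region, 3 of the 18 held the site against 8.60% of all nuclear IDR peaks: the Atg17 intron, at 68 bp from the summit, and the peaks near CG10337 and Tep4, at 117 and 77 bp. The CRE near Tep4 was the only searched motif within 50 bp of a summit here, and 0.421% of nuclear IDR summits held one. Over the whole regions, a DRE was in 3 of the 18 (7.97% of all nuclear IDR peaks), an E box in 2 (4.84%) and a GAGA site in 4 (15.1%). Motif matches are letters in the genome and do not show that Jra touches them.

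AP-1 sites were counted over the whole windows too. The 10 windows held 12 sites in 7 genes, or 0.940 per 10 kb, beside 0.832 per 10 kb over the chromosome arms. Of the 12, 5 lay under a region of the pooled list. Neither this count nor that of the 7 genes was made beyond the 10 windows. The DRE was in the promoter, 250 bp before to 50 bp after a TSS, of Atg7, Atg13, Atg17 and ref(2)P, and in 9.37% of protein-coding gene promoters. No AP-1 site was in the promoter of any of the 10, and 2.50% of protein-coding genes had one.

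The longer lists, IDR peaks and background regions together, had a region within 1000 bp of a TSS for most of the 10 genes. The pooled list had one for 8 of the 10, against 48.9% of protein-coding genes. A region below the IDR range was among them for 5: Atg1, Atg5, Atg8a, Atg18a and ref(2)P. For Atg7, Atg9 and Atg17 the pooled regions there were all IDR peaks. Neither of these counts was made for all protein-coding genes. Replicate 1 had one for 8, against 52.7%, and replicate 3 for 9, against 51%. Atg13 made the difference between the replicates.

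A further 40 genes of the pathway were chosen from general knowledge, but with earlier results of these data known. The 40 were counted in the same way, without matching for gene length. Of these, 17 (42.5%) held an IDR summit within 1000 bp of a TSS and 23 (57.5%) held one in the window, beside the 20.4% and 34.3% of all protein-coding genes. Signals at the 17 promoters ran from 72.2 to 187 with a median of 105. None was as strong as the Atg18a start site, at 209. For 3 of the 17, Atg12, Uvrag and Vps39, the summit was nearer to the TSS of another gene. Among the 3827 strongest regions of replicate 1 alone, Atg16 and cathD had none near a TSS, and in replicate 3 alone Atg3, Syx17, Tango5 and TP53INP had none.

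The counts by role rest on 2 to 13 genes each, beside 20.4% of all protein-coding genes. Differences between roles were not tested. In the conjugation system 3 of 7 had a promoter peak. Atg12, the ubiquitin-like partner of Atg5, had 164, Atg16, which binds that conjugate, had 82.7, and Atg3, the enzyme that transfers Atg8a, had 72.2. Atg16 rested mostly on 1 replicate, with 18.6 in replicate 1 and 65.9 in replicate 3. Of 7 genes of the initiation and Vps34 complexes 2 had one, the kinase subunit Vps15 with 111 and Uvrag with 105.

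Among the genes for fusion with the lysosome 6 of 13 had a promoter peak. The SNARE genes Snap29, Vamp7 and Syx17, whose products join the autophagosome to the lysosome, had 172, 124 and 73.6. The tethering subunit Vps39 had 133, and the small GTPases Rab7 and Rab2 had 105 and 81.8. Of 4 lysosome genes, the proteases CtsB and cathD had 102 and 81.5. Of the regulators 3 of 4 did: Keap1, which holds back the oxidative stress factor cnc, had 187, cnc had 110 and TP53INP had 72.8. Tango5 was 1 of 2 genes for the membrane source. None of the 3 genes of selective autophagy had one.

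**Figure D5:**
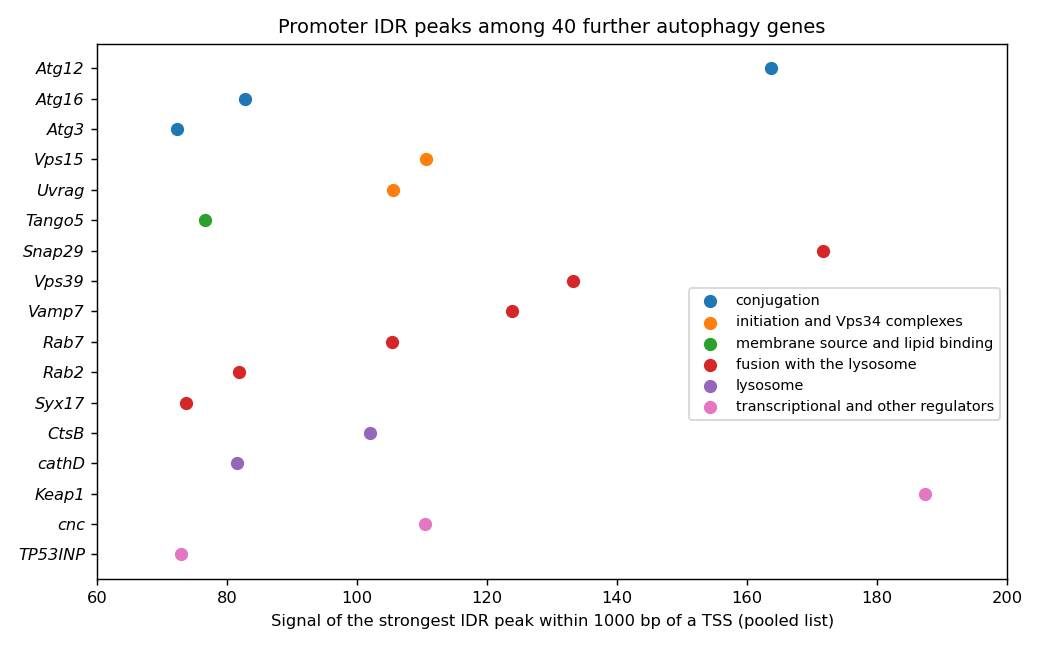
Pooled signal of the strongest IDR peak within 1000 bp of a TSS for the 17 of 40 further autophagy genes that had one, coloured by role (horizontal axis, signal). Values run from 72.2 at Atg3 to 187 at Keap1.

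The 17 further genes without an IDR summit anywhere in the window were Atg4a, Atg4b, Atg8b, Atg10, Atg6, Atg14, Pi3K59F, Vps11, Vps16A, car, lt, Plekhm1, Epg5, Lamp1, Pink1, park and Mitf. They include both Atg4 proteases, the lipid kinase Pi3K59F and its partner Atg6, and Mitf, the factor that controls lysosome genes. Of these, Atg6 had a region near its TSS among the 3827 strongest of each replicate, yet none in the IDR list. No region of the pooled list near that TSS thus reached 70.6, the weakest nuclear IDR signal. Peaks were thus found at some genes of most steps and absent from the list at others of the same step.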

How the data were processed

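Regions bound by Jra-GFP in 2 biological replicates were taken from 4 peak lists on build dm6 (each replicate, pooled, and IDR). The signal is the value the authors' caller deposited for each region. It has its own scale in each list. Per the deposited text files, the replicate and pooled lists derive from the alignments and 1 further file, and the IDR list from those lists. The sources used here do not give the aligner, the caller or the IDR cut. The 3827 IDR peaks are the 3827 strongest regions of the pooled list. Read depth is unknown. The dm3 lists and control libraries were not analysed here.

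Python 3.11.15 and numpy 2.4.6 were used. Mitochondrial peaks were left out. The summit is the deposited one, counted from 1. Start sites are those of any transcript of the gene. A replicate's value at an IDR peak is that of the overlapping region (at least 1 bp) with the nearest summit, a choice made after the data were seen, and for the list of 40 that of the strongest overlapping region. Sequences were read from the RefSeq Release 6 genome, which is dm6. Assignment and motif searches were tested on simulated data. The 10 genes and the list of 40 were chosen with earlier results of these data known. The genes named are the 10, the gene nearest to each of their IDR summits, and those of the 40 with a promoter peak. Other genes, such as hosts of a summit, were named after their values were seen. With 1 group of 2 replicates no test was made, and no p-values are given. Alternatives changed the window, the peak list and the motif setting.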

Additional observations from a re-analysis of the deposited data

How the results depend on the processing

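The count of 9 genes with an IDR summit in the window and of 5 with one near a TSS did not change when either replicate was used alone (9 to 9 and 5 to 5). With the IDR peaks of signal above the median alone, the 9 became 6 (Atg8a, Atg9 and Atg13 were lost), the 5 became 3 (Atg7, Atg17 and Atg18a), the 17 of the wider list became 9, and the shares of all protein-coding genes became 12.1% near a TSS and 22.2% in the window. Without replicate 1 or 3, the wider list gave 16 to 19 genes, of which 11 were called in both single replicates and in the IDR list, and the shares of protein-coding genes were 20.4% to 21.3% near a TSS and 34.4% to 35.6% in the window. The share in the window was 10.8% for gene bodies only, 25.4% at 1 kb and 41.4% at 5 kb, where the 9 genes became 6, 7 and 9. The share near a TSS was 15% at 250 bp, 17.9% at 500 bp and 21.4% when any overlap of the region counted, with 5 of the 10 genes each time. Summits with an AP-1 site were 2 of 18 within 100 bp, a setting not counted over all nuclear IDR summits. With 1 mismatch allowed within 50 bp they were 4, where 19.5% of all nuclear IDR summits matched. No paired analysis was possible because the design has 1 group. The summit lies in the middle of 80.4% of IDR regions, 98.5% of replicate 1 regions and 99.0% of replicate 3 regions. Binding within a region therefore cannot be placed finely, and intervals cannot be given without read counts.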

Other observations

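Regions of the pooled list, background included, were denser around some of the 10 genes than around most. The median density in the window was 4.58 regions per 10 kb for the 10 genes and 2.13 for all protein-coding genes, of which the densest 25% started at 4.67. Atg8a had 9.51 per 10 kb, Atg5 had 7.92, ref(2)P had 7.71 and Atg1 had 6.00, while Atg9 had 1.13 and Atg2 had 0. Regions that overlapped one another were counted separately, for the 10 genes and for all genes alike. The densities were not tested.

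The median GC content of the 101 bp around the summit was 33.7% at the 18 summits and 37.6% at all nuclear IDR summits, and 8 of the 18 lay above the latter. Values ran from 17.8% at the start of Atg9 to 50.5% in the 5′ UTR of Atg18a. Outside the 18 peaks, the strongest intronic region of Atg1 that missed the IDR list had a signal of 63.0 and an AP-1 site 138 bp from its summit. The AP-1 site closest to any summit of the pooled list lay in an intron of Atg8a, 49 bp from the summit of a region of signal 34.2 and rank 10995.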
